A study of Mus musculus with 4 samples.

Results

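The genes described here are 5 microRNA genes of neuronal fate, Mir9-1, Mir9-2, Mir9-3, Mir132 and Mir212, out of 2202 microRNA genes in the GENCODE M21 mouse annotation. They were listed as loci known to be linked to REST. The rule did not use the peaks measured at them, but the genes were chosen with earlier results of these data known. The measurement was Eya1 ChIP-seq (sequencing of DNA recovered by chromatin immunoprecipitation) in E13.5 mouse kidneys, and the question was whether Eya1 peaks lie at these loci and whether the peaks hold the DNA element that REST recognises. All samples came from Eya1HA-FLAG knockin embryos, in which the Eya1 protein carries HA and FLAG tags, with 80 pooled kidneys for each assay. Anti-FLAG beads recovered the tagged protein in 2 Eya1 ChIP replicates, and the series also held 1 input control and 1 IgG control, which were not analysed here. A whole kidney at this age holds nephron progenitors, ureteric epithelium, stroma and other cell types, and a peak list does not say in which of them Eya1 lay.

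REST (also called NRSF) is a zinc-finger repressor that keeps neuronal genes silent in cells outside the nervous system by bringing corepressors to an element called RE1. Several microRNAs that promote or maintain a neuronal state are among its known targets, and some of them in turn act on REST or on its partners. Eya1 is a transcriptional coactivator and phosphatase needed to form the kidney. It has no known DNA-binding domain and reaches DNA through partners such as Six2.

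The mature microRNAs are shown because they define the 2 families among the 5 genes. Sequences are those of RefSeq (GRCm38.p6), in which 5 of 5 genes were found at the same place, and the capitals mark the seed, bases 2 to 8, which pairs with target RNAs. All 3 Mir9 genes give the same pair of mature sequences, so their products cannot be told apart. The main product, miR-9-5p, is highly abundant in neural progenitors and acts on REST transcripts, and miR-9-3p comes from the other arm of the hairpin.
miR-9-5p: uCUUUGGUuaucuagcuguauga
miR-9-3p: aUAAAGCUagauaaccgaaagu
miR-132-3p: uAACAGUCuacagccauggucg
miR-212-3p: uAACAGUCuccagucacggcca
The main products of Mir132 and Mir212, which are induced by neuronal activity and shape dendrites and synapses, have the same seed and are identical at 17 of 22 positions. They were the only 2 mature mouse names in the RefSeq table with this seed.

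The RE1 elements are shown next because peaks lay on the first pair and not on the others. RE1 was searched on both strands as its 17-base consensus with at most 2 mismatches. Each element is printed 5′ to 3′ on its own strand, with its 17 bases in capitals and 6 bases of flank on each side. A substitution is given as the consensus base, the position counted from 1 at the 5′ end of the element, and the base found.
Mir9-1, 5.34 kb downstream, in a replicate 2 peak: atggtaTCCAGCACCACGGACAGctccca
Between Mir212 and Mir132, in a peak of both lists: cactgcATCAGCACCGCGGACAGcggcgc
Mir9-2, 8.9 kb downstream, in no peak: catcacTTCAGAACCTGAGACAGgagaat
Mir9-3, 2.89 kb upstream, in no peak: gcagttCTCAGCACCATGGCCAGggcctg
Mir9-1, 3.27 kb upstream, in no peak: attgtaTTTAGCACCATGCCCAGagggaa
The elements are at chr3:88221025-88221041 (+), chr11:75173526-75173542 (−), chr13:83747788-83747804 (−), chr7:79502360-79502376 (+) and chr3:88212308-88212324 (+) of GRCm38, in the order printed. The Mir9-2 element matched the consensus with 0 mismatches, and the others differed from it at 1 position each. These were T2C for the element in the Mir9-1 peak, T1A for the element between Mir212 and Mir132, T1C at Mir9-3 and G13C for the upstream element at Mir9-1.

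The 2 peak lists were of similar length, but peaks were much wider in replicate 1, with a median of 1069 bp (range 168 to 5380 bp), than in replicate 2, with a median of 188 bp (range 117 to 2699 bp). The lists gave positions only, with no score, p-value or read count. Read depth at each peak is therefore unknown, and no test could be made at a locus. The labels name the samples replicates and do not say whether they came from separate litters. A peak in only 1 of the lists was not called in the other replicate. Without scores it is unknown how close the other replicate came to a call there.

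Eya1 peaks lay at the Mir212 and Mir132 hairpins in both lists, in replicate 2 alone near Mir9-1 and Mir9-3, and nowhere near Mir9-2. Distances are between the nearest edges of the gene and the peak, and are 0 where they overlap. Within 1 kb of the hairpin, 2 of 5 genes had a peak in replicate 1, and the same 2 had one in replicate 2. Of all 2202 annotated microRNA genes, 4.18% had a replicate 1 peak within 1 kb, 2.45% a replicate 2 peak, 4.5% a peak of either list and 2.13% peaks of both. Of 21951 protein-coding genes, 25.3% had a peak of either list within 1 kb of the gene. A whole protein-coding gene is a longer target than a hairpin, so this share is not directly comparable. Mir212 and Mir132 lie next to each other and shared the same peaks, so the 2 genes are a single observation.

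**Figure D1:**
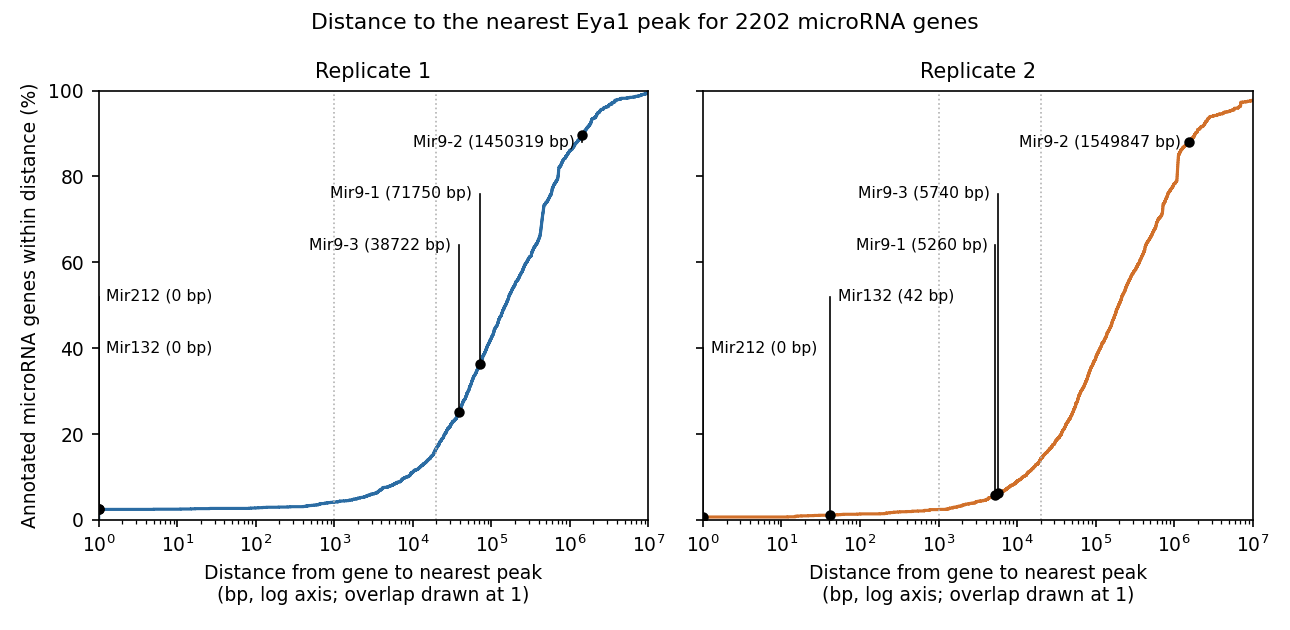
Percentage of the 2202 annotated microRNA genes (vertical axis) with a peak within a given distance in bp (horizontal axis, log scale, overlap drawn at 1) in replicate 1 (left) and replicate 2 (right), with the 5 genes as points and dotted lines at 1 and 20 kb. Mir212 and Mir132 lie at the low end of both curves, at 0 to 42 bp, Mir9-1 and Mir9-3 lie within 20 kb in replicate 2 only, and Mir9-2 is at least 1450 kb from a peak in both.

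Within 20 kb, 2 of 5 genes had a replicate 1 peak and 4 of 5 had a replicate 2 peak. The share of all annotated microRNA genes was 16.7% in replicate 1, 14.2% in replicate 2 and 19.8% in either list. Both lists had a peak within 20 kb of 2 of 5 genes, against 11.1% of all microRNA genes. A peak that held an RE1 match lay within 20 kb of 3 of 5 genes in replicate 2 and of 2 of 5 in replicate 1, the 2 being Mir132 and Mir212 and the further gene Mir9-1. In either list 3 of 5 genes thus had such a peak within 20 kb, beside 3.86% of all microRNA genes. Both lists had such peaks within 20 kb of 2 of 5 genes, beside 1.54% of all microRNA genes. The genes were listed as REST-linked, so the counts describe these loci and are no sample of microRNA genes.

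**Figure D2:**
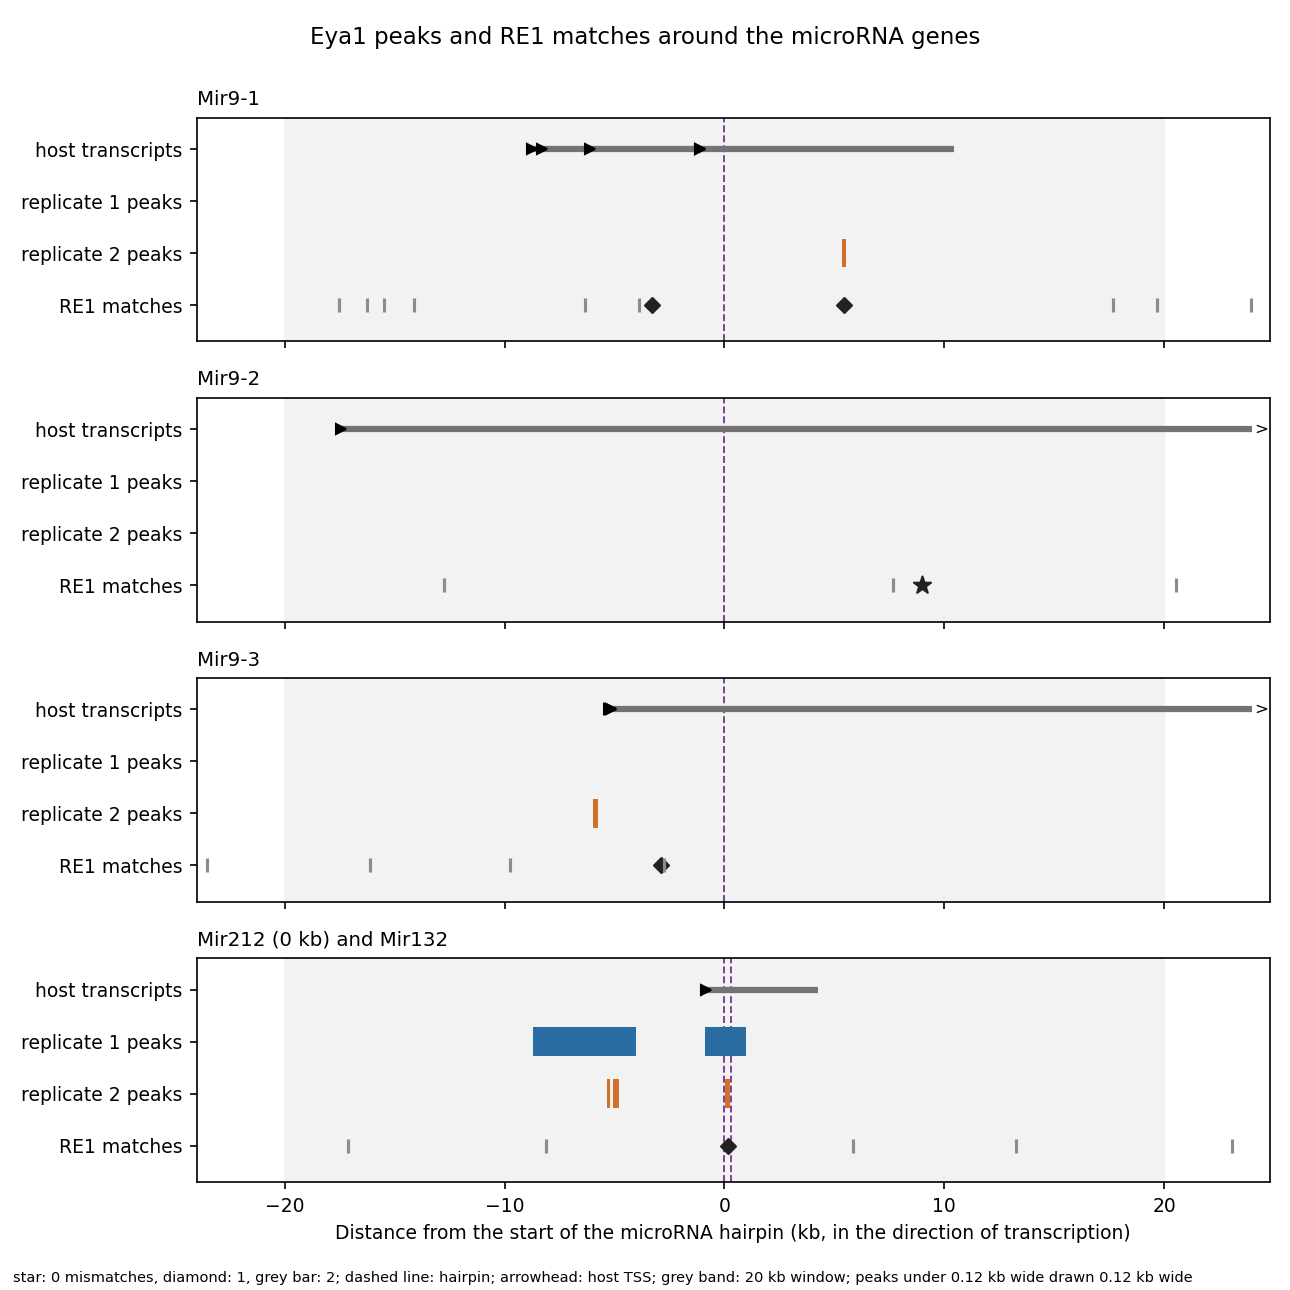
Each panel shows 1 locus, with distance in kb from the start of the hairpin in the direction of transcription on the horizontal axis and rows for host transcripts, replicate 1 peaks (blue), replicate 2 peaks (orange) and RE1 matches (star 0, diamond 1 and grey bar 2 mismatches). Peaks of both lists overlap a 1-mismatch RE1 match between Mir212 and Mir132, a replicate 2 peak lies on the 1-mismatch match downstream of Mir9-1, the replicate 2 peak at Mir9-3 lies before the host start and holds no match, and the 20 kb band around Mir9-2 has no peak.

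Mir212 (ENSMUSG00000065590.1) spans chr11:75173388-75173478 and Mir132 (ENSMUSG00000065537.2) spans chr11:75173682-75173747, both on the plus strand. Both hairpins, of 91 and 66 bp, lie in intron 1 of the only transcript of 1700016P03Rik, a processed transcript with 3 exons at chr11:75172560-75177633. The host start site lies 828 bp before Mir212 and 1122 bp before Mir132.

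The replicate 1 peak at this locus was chr11:75172484-75174383. It was 1900 bp wide, wider than 89.7% of the peaks in its list, and covered the host start site, exon 1 (38 bp), 184 bp of exon 2, and all of both hairpins. The replicate 2 peak was chr11:75173423-75173640. It was 218 bp wide, wider than 61.1% of its list, and lay wholly inside the replicate 1 peak and inside intron 1, 863 bp from the host start site. It covered 56 of the 91 bp of the Mir212 hairpin, with the whole of the miR-212-3p sequence (chr11:75173443-75173464), and ended 42 bp before Mir132. The wide peak thus spanned the promoter and the hairpins together, whereas the narrow peak lay on the end of Mir212 and the gap after it. Its midpoint was 144 bp after the start of Mir212, and that of the wide peak was 46 bp after it.

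Both peaks held the RE1 match chr11:75173526-75173542, which lies between the hairpins, 48 bp after the end of Mir212 and 140 bp before the start of Mir132, on the strand opposite to the genes. The match was 2 bp from the midpoint of the replicate 2 peak and 100 bp from that of the replicate 1 peak. Among all peaks with an RE1 match, the distance from the midpoint to the match nearest to it was taken. This nearest match lay at a median of 11.5 bp in replicate 2 and 175 bp in replicate 1, where peaks are wider. In replicate 2 it lay within 2 bp in 80 of 726 such peaks, so the match at this locus was among the most central of that list. RE1-holding peaks of either list lay within 1 kb of 0.817% of all microRNA genes, and RE1-holding peaks of both lists lay within 1 kb of 0.182%. The latter were 4 genes, Mir132, Mir212, Mir219a-1 and Mir219c, and the last 2 also overlap each other, so they stand for 2 loci in the genome.

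**Figure D3:**
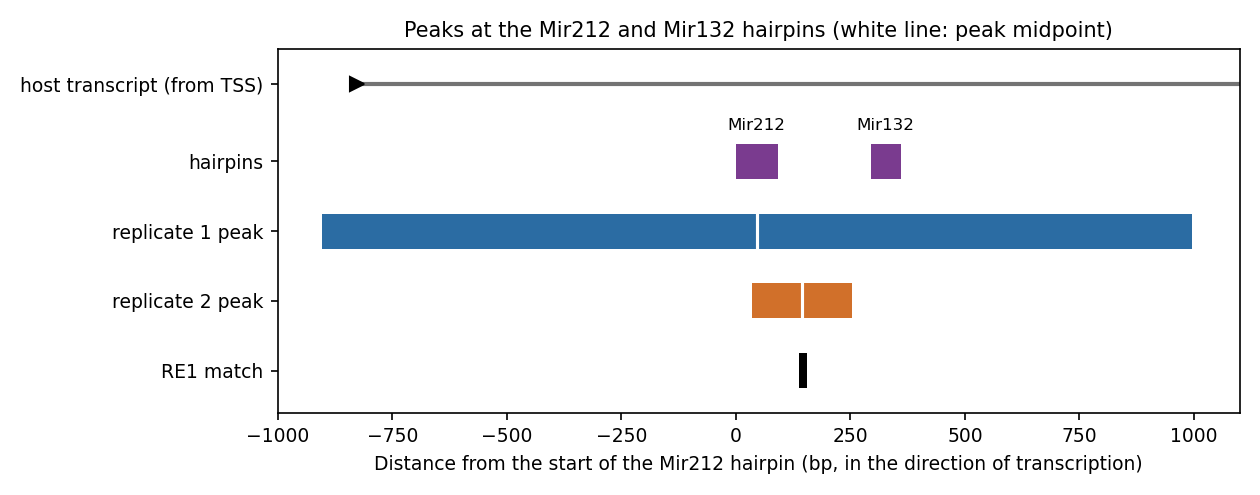
The Mir212 and Mir132 locus, with distance in bp from the start of the Mir212 hairpin on the horizontal axis and rows for the host transcript, hairpins, replicate 1 peak, replicate 2 peak and RE1 match, with a white line at each peak midpoint. The 1900 bp peak spans the host start site and both hairpins, and the 218 bp peak is centred within 2 bp of the RE1 match between them.

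The G+C content was 75.2% in the replicate 2 peak and 63.4% in the replicate 1 peak. The medians of the lists were 68.6% and 62.8%, and those of RE1-holding peaks were 55.1% and 61.4%, so the replicate 2 peak at this locus was richer in G+C than the typical RE1-holding peak of its list. The ratio of observed to expected CpG was 0.86 in replicate 2 and 0.73 in replicate 1, beside list medians of 0.81 and 0.77. An RE1 match was less common in peaks near promoters. Of the peaks within 1 kb of any annotated start site, 14.7% held a match in replicate 1 and 7.02% in replicate 2, beside 65.3% and 75.7% of the peaks farther away and 17.5% and 17.4% of all peaks. Both peaks at Mir212 and Mir132 belonged to the group within 1 kb of a start site. In replicate 1, the list with the wider peaks, 326 of 2033 peaks from 1000 to 2000 bp wide held a match.

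A second block of peaks lay on the other side of the host start site, at Hic1, a zinc-finger tumour suppressor gene that encodes a transcriptional repressor. In replicate 1 it was 1 peak at chr11:75164676-75169344, 4669 bp wide, which ranked above 99.9% of the widths in its list and ended 4044 bp before Mir212. In replicate 2 it was 2 peaks inside that interval, chr11:75168038-75168187 (150 bp) and chr11:75168297-75168597 (301 bp), which together shared 451 bp with it. The replicate 1 peak held 1 RE1 match with 2 mismatches, far from its midpoint, in the last exon of Hic1. The replicate 2 peaks held 0 matches, and their best alignments to the consensus had 4 and 3 mismatches. The block at Hic1 therefore differed from the one at the hairpins in that no RE1 match was found in the DNA listed by both replicates.

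**Figure D4:**
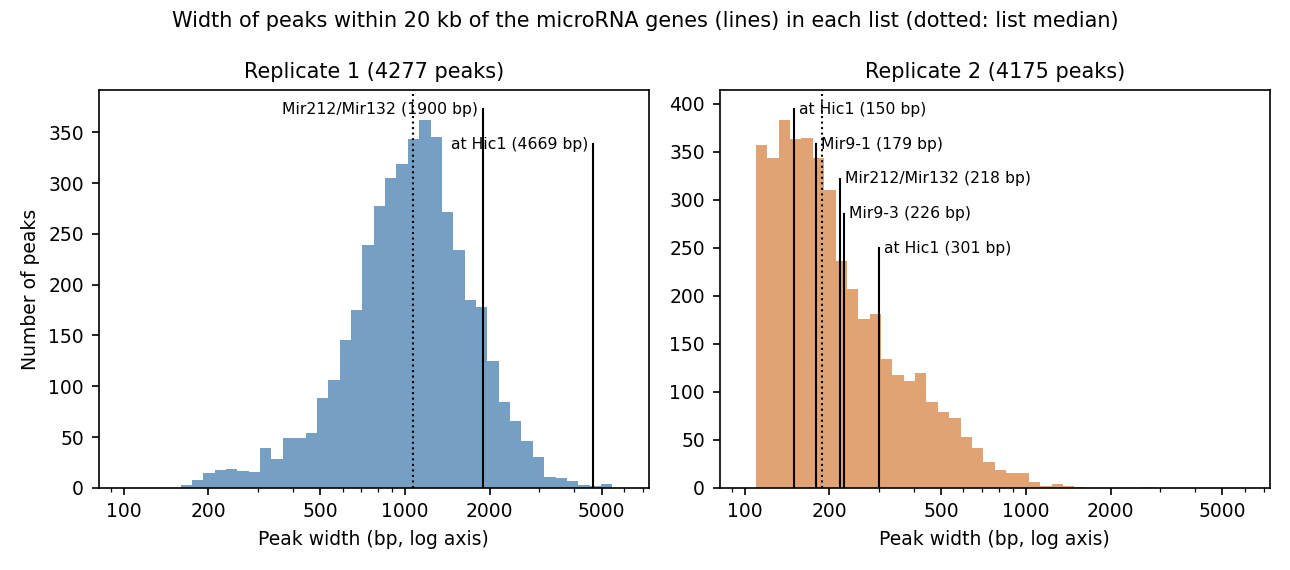
Number of peaks by width (bp, log axis) in replicate 1 (left) and replicate 2 (right), with the list median dotted and solid lines at the peaks within 20 kb of the 5 genes. The 2 replicate 1 peaks, of 1900 and 4669 bp, lie above the median of 1069 bp, and the 5 replicate 2 peaks, of 150 to 301 bp, lie on both sides of the median of 188 bp.

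Mir9-1 (ENSMUSG00000106493.1) spans chr3:88215598-88215686 on the plus strand and is intronic in all 5 transcripts that contain it, which belong to the lincRNA Gm3764 (chr3:88206813-88229959). Their start sites lie 1103 to 8772 bp before the hairpin. Replicate 2 listed a peak at chr3:88220946-88221124, 5260 bp after the hairpin. It was 179 bp wide, close to the list median, and 169 bp of it lay in exon 2 of 2 of the transcript ENSMUST00000181356.1, 1540 bp from the nearest start site. Replicate 1 had no peak in this window, and its nearest peak was 71.8 kb upstream.

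The RE1 match in the Mir9-1 peak was 2 bp from the peak midpoint, as at Mir212, and lay on the same strand as the gene. It was identical to the element between Mir212 and Mir132 at 14 of 17 positions, the differences from the Mir9-1 element being T1A, C2T and A10G. From position 11 on the 2 elements did not differ. Both were found as matches to the same consensus with 1 mismatch each, so identity at many positions follows from the search. The peak DNA itself was unlike that at Mir212, with a G+C content of 59.2% and an observed to expected CpG ratio of 0.26, against list medians of 68.6% and 0.81. It was also among the peaks over 1 kb from a start site, most of which held a match in replicate 2. A further 9 RE1 matches lay within 20 kb of Mir9-1, none of which was in a peak. They included the 1-mismatch element 3.27 kb upstream, in an intron of Gm3764.

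Mir9-3 (ENSMUSG00000093238.1) spans chr7:79505264-79505353 on the plus strand, in intron 1 of all 4 transcripts of the lincRNA Mir9-3hg (chr7:79500026-79534403) and 5143 to 5238 bp from their start sites. Replicate 2 listed a peak at chr7:79499299-79499524, 226 bp wide and 5740 bp before the hairpin. It was intergenic and lay 502 bp before the first start site of the host, so that it was within 1 kb of the host transcript although not of the hairpin. The peak held 0 RE1 matches, and its best alignment to the consensus had 4 mismatches. Most replicate 2 peaks within 1 kb of a start site likewise held none. Its G+C content of 64.2% and CpG ratio of 0.66 were below the list medians. Replicate 1 had no peak nearer than 38.7 kb, and that peak held no match either. The 4 RE1 matches within 20 kb of Mir9-3, among them the 1-mismatch element in the host intron, all lay outside peaks.

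Mir9-2 (ENSMUSG00000065424.2) spans chr13:83738814-83738885 on the plus strand, within the lincRNA C130071C03Rik (chr13:83721381-83884194). It is exonic in 1 of 2 host transcripts and lies in intron 3 of the other, 17433 bp from their shared start site. The nearest peak was 1450 kb away in replicate 1 and 1550 kb away in replicate 2, both downstream. The 20 kb window nevertheless held the closest RE1 match of all 5 genes to the consensus, the element with 0 mismatches, in an intron of C130071C03Rik. The 3 Mir9 genes, which give the same product, thus differed in replicate 2. Mir9-1 had a peak on an RE1 match, Mir9-3 a peak without a match near the host start, and Mir9-2 no peak. In replicate 1 none of the 3 had a peak within 20 kb. All 3 had RE1 matches outside peaks. This was the common case, since 0.702% of the 188342 matches in the genome lay in a peak of either list.

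Around the 5 genes there were 22 RE1 matches within 20 kb, and 3 of them (13.6%) lay in a peak of either list. By locus the numbers in a peak were 1 of 10 at Mir9-1, 0 of 3 at Mir9-2, 0 of 4 at Mir9-3 and 2 of 5 at Mir132 and Mir212. By closeness to the consensus they were 0 of 1 match with 0 mismatches, 2 of 4 with 1 mismatch and 1 of 17 with 2 mismatches, the last in the wide replicate 1 peak at Hic1. In the whole genome 708 matches had 0 mismatches, of which 30.6% lay in a peak. There were 12998 with 1 mismatch, of which 2.67% lay in a peak, and 174636 with 2 mismatches, of which 0.434% did. A match with 0 mismatches outside a peak, as at Mir9-2, was therefore the common case. Most matches with 1 mismatch were also in no peak, unlike the downstream one at Mir9-1 and the one between Mir212 and Mir132.

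To separate the matches by their form, RE1 was also searched as its left part, TTCAGCACC, and its right part, GGACAGC, with at most 1 mismatch in each, on the same strand and 0 to 20 bases apart. The gap is 2 bases in the standard element. Within 20 kb of the 5 genes there were 3 such pairs, and all 3 lay in peaks. The pair at Mir9-1 and the pair between Mir212 and Mir132 had a gap of 2 and were the elements already described, each with 0 mismatches in the right part. The pair at chr11:75173898-75173922 had a gap of 9 and lay in the replicate 1 peak at Mir132, outside the replicate 2 peak. The Mir9-2 and Mir9-3 elements and the upstream Mir9-1 element did not form a pair. In the whole genome 1775 pairs had a gap of 2, of which 26.6% lay in a peak of either list, with 11.5% in replicate 1 and 26.2% in replicate 2. There were 25696 pairs with another gap, of which 0.829% lay in a peak. The elements in peaks at Mir9-1 and Mir212 belonged to the pairs with a gap of 2, most of which lay in no peak. They also belonged to the matches with 1 mismatch, of which 2.67% lay in a peak. The share for elements in both classes was not computed, so these shares do not account for the peaks at these elements. A match is a property of the sequence, and REST itself was not measured in these samples.

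**Figure D5:**
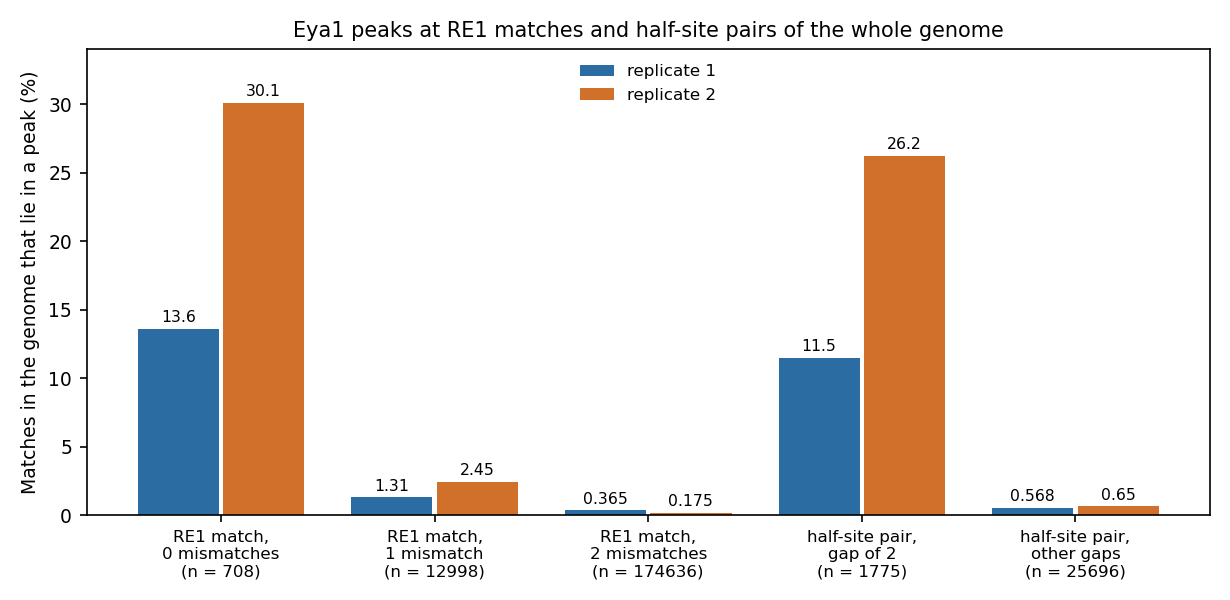
Percentage of RE1 matches and of paired RE1 parts in the genome (vertical axis, from 0) that lie in a peak, for replicate 1 (blue) and replicate 2 (orange), with the number in the genome under each pair of bars. The bars are highest for matches with 0 mismatches (13.6% and 30.1%) and for pairs with a gap of 2 (11.5% and 26.2%). They are at most 2.45% for the other kinds. The 1-mismatch elements in peaks at Mir9-1 and Mir212 count both as pairs with a gap of 2 and as matches with 1 mismatch (1.31% and 2.45%).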

How the data were processed

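The deposited files were 1 peak list for each Eya1 ChIP replicate, with the chromosome, start and end of each peak. The authors made the lists from mm10 alignments (Bowtie) with the peak caller MACS, once with input and once with IgG as control, and analysed further the peaks found with both. The submitters' processing notes name mm10 and HISAT2. They used more than a single P value cutoff. The cutoff behind each list, and whether it holds calls against 1 control or those found with both, were not given in the sources used here. Groups came from the sample titles.

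Peaks were compared with GENCODE M21 genes on GRCm38, the assembly of mm10, and 0 peaks ran past a chromosome end. The genes and lists were chosen with earlier results of these data known. Genes named were the 5 genes, their hosts, the genes nearest to peaks within 20 kb (50 kb where a gene had none), and microRNA genes of 2 comparison lists with a peak within 1 kb or an RE1-holding peak within 20 kb. Mir219c, Mir17, Mir92-1, Mir7-1 and the Mir124a genes fall outside this rule and were named after their values were seen.

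RE1 was searched in whole peaks and on the chromosomes, and the share of the genome's paired RE1 parts was added after the values were seen. The known answer was recovered in 3000 of 3000 simulated cases. These covered planted RE1 elements, planted pairs of RE1 parts and distances between intervals. No statistical test was run. Python 3.11.15, numpy 2.4.6, pandas 2.3.3 and matplotlib 3.10.9 were used. Alternatives covered the window, the distance rule, the peak width, the RE1 stringency and each list left out.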

Additional observations from a re-analysis of the deposited data

How the results depend on the processing

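Of 43 alternative values for 5 counts, 37 stayed within 1.5 times the reported count and 6 did not. The counts are small, so a change between 2 and 3 falls within this limit. The count with an RE1-holding peak within 20 kb, for example, went from 3 to 2 without replicate 2. Some alternatives could change little, as the filter of at least 150 bp removed no peak within 20 kb of the genes. The count of genes with a peak within 1 kb became 1 of 4 with Mir132 and Mir212 taken as 1 locus, and 4 of 5 with distance measured to the host transcript. The count with peaks of both lists within 20 kb became 1 of 4 with Mir132 and Mir212 as 1 locus. The count with a peak within 20 kb became 2 with a 5 kb window. It ranged from 2 to 4 when either list was left out, with 2 from replicate 1 alone, since the peaks at Mir9-1 and Mir9-3 were in replicate 2 only. The RE1 matches in a peak became 12 of 170 with at most 3 mismatches allowed. The smaller counts follow from fewer genes, a narrower window or fewer peaks, and the larger ones from wider targets or a looser search. No paired analysis was possible because the results come from no test and the lists carry no values to pair. The lists give no depth, so it is unknown whether a locus without a peak had enough reads for a call.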

Other observations

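Of all 2202 annotated microRNA genes, 4.5% had a peak of either list within 1 kb and 19.8% within 20 kb. RE1-holding peaks lay within 20 kb of 3.86% in either list and of 1.54% in both. Of 26 annotated genes on a list of other microRNAs known in neurons, 3 had a peak of either list within 1 kb and 6 within 20 kb. An RE1-holding peak lay within 20 kb of 3 of the 26, in both lists each time. These were Mir219a-1, whose product acts in oligodendrocyte formation, with peaks at 0 and 1 bp in replicates 1 and 2, Mir137, a microRNA of neuronal maturation, at 2013 and 2192 bp, and Mir375, known in pancreatic islets and neuroendocrine cells, at 8689 and 8846 bp. Mir7b had peaks without an RE1 match at 552 and 653 bp, and Mir7-1 at 8036 and 8767 bp. Mir125b-1 had such a peak in replicate 2 only, at 213 bp, and the nearest replicate 1 peak was 779985 bp away. Mir124a-1, of the most abundant neuronal microRNA family, had RE1-holding peaks of both lists just outside the 20 kb window, at 21756 and 21779 bp. The nearest RE1-holding peak of either list was 137846 bp from Mir124a-3 and 1898295 bp from Mir124a-2. Mir124a-3 also had a replicate 2 peak without an RE1 match at 26419 bp. None of the 3 Mir124a genes thus had a peak of either list within 20 kb.

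Of 27 genes on a list of microRNAs known in kidney or in many tissues, 0 had a peak within 1 kb. Within 20 kb, 13 had a peak of either list, 11 had peaks of both and 0 had an RE1-holding peak. Among all microRNA genes these shares were 4.5% within 1 kb, and 19.8%, 11.1% and 3.86% within 20 kb. In a list of 27 genes, a count of 0 is close to a share of 3.86%. Clustered genes share peaks, as Mir17 and Mir92-1 do, with distances of 1937 to 2792 bp. No test compares the 2 lists, which were chosen with earlier results known.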
